A study of Danio rerio with 3 samples.

Results

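The proteasome subunit genes of the zebrafish liver were followed across 3 single-cell RNA sequencing libraries. A gene was taken as a member when its name began with psma, psmb, psmc, psmd, psme, psmf or psmg in lower case and when it was listed in all 3 libraries. This gave 51 of the 11233 genes listed in all 3. Of the members, 44 are called core here, and 7 are the immunoproteasome and PA28 genes psmb8a, psmb9a, psmb10, psmb12, psmb13a, psme1 and psme2. The 5 psmb genes among these are called inducible as a group. By RefSeq synonym psmb8a, psmb9a and psmb10 are beta5ia, beta1ia and beta2i, whereas psmb12 and psmb13a are beta1t and beta2ta. Whether psmb12 and psmb13a are inducible was not tested.

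The proteasome is the barrel-shaped protease that degrades proteins tagged with ubiquitin. Its 20S core is built from rings of alpha subunits (psma) that gate the entrance and rings of beta subunits (psmb) that hold the catalytic sites, and its 19S cap is built from ATPases (psmc) that unfold substrates and from non-ATPase subunits (psmd) that bind and strip ubiquitin. Interferon and immune cells bring in alternative catalytic beta subunits that form the immunoproteasome, together with the PA28 activator (psme1 and psme2), and this form of the enzyme is known for making peptides for class I antigen presentation.

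Each library came from 1 liver of a male fish aged 6 months, so differences between libraries have no check against variation among fish and were not tested. HepABC HCC was a liver with hepatocellular carcinoma (HCC) from Tg(fabp10a:pt-β-cat) fish, in which the hepatocyte promoter of fabp10a drives activated β-catenin, and this fish also carried a TCF reporter that makes mCherry. CreLox HCC was a liver with HCC from fish with fabp10a-driven CreERT2 and a lox-switch transgene, which turns on activated β-catenin once recombined. The no HCC liver had the lox-switch transgene alone and no Cre. Larvae of the CreLox HCC and no HCC groups had received 4-hydroxytamoxifen at 10 µM from day 3 until day 6, and the HepABC HCC group had received none.

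The counts were unique molecular identifiers (UMIs), and levels are given as UMIs per 1000000 UMIs of the same cells (CPM). Intervals are exact at 95% and cover counting error only. Cells with 10000 or more UMIs, called deep cells, numbered 1938 of the 2866 cells of HepABC HCC, 186 of the 2112 of CreLox HCC and 213 of the 1077 of no HCC. They held 43540667, 4923946 and 3531546 UMIs in the same order of libraries. Cells under 5000 UMIs were split by a UMI of c1qb (a macrophage complement gene), of ccl38.6 (a chemokine gene used as the lymphocyte marker) or of tmem88a (an endothelial gene), and those with none of these markers numbered 221, 1334 and 395. The mitochondrial share of UMIs was 6.48%, 6.13% and 8.81% in deep cells and 10.7%, 1.54% and 4.47% in shallow cells without a marker. Cell barcodes shared between libraries numbered between 1 and 8 per pair. The 12 hepatocyte markers summed to 181137, 187239 and 267980 CPM in deep cells, and 4 globin genes to 0.597, 1.02 and 1454 CPM. These globin UMIs moved with the no HCC library, and their part in the results below was not tested.

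In deep cells the core proteasome was higher in both HCC libraries than in no HCC, while the sum of the inducible beta subunits was lower. The 44 core members summed to 1158 CPM in HepABC HCC (1148 to 1168) and 1340 CPM in CreLox HCC (1307 to 1372), against 818 CPM in no HCC (788 to 848). The core sum was therefore 1.42-fold higher in HepABC HCC (1.36 to 1.47) and 1.64-fold higher in CreLox HCC (1.57 to 1.71) than in no HCC, and in HepABC HCC it was 0.865 of that in CreLox HCC (0.843 to 0.887). The 5 inducible beta subunits summed to 35.3 CPM in HepABC HCC and 69.1 CPM in CreLox HCC, against 104 CPM in no HCC, which gave ratios of 0.341 (0.304 to 0.383) and 0.666 (0.573 to 0.774) over no HCC. The pair psme1 and psme2 went the other way in CPM, with 49.6 CPM in HepABC HCC and 49.4 CPM in CreLox HCC, against 30.9 CPM in no HCC, 1.61-fold (1.32 to 1.97) and 1.60-fold (1.27 to 2.02) higher. The median of all genes was also higher in both HCC libraries, as given below.

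**Figure D1:**
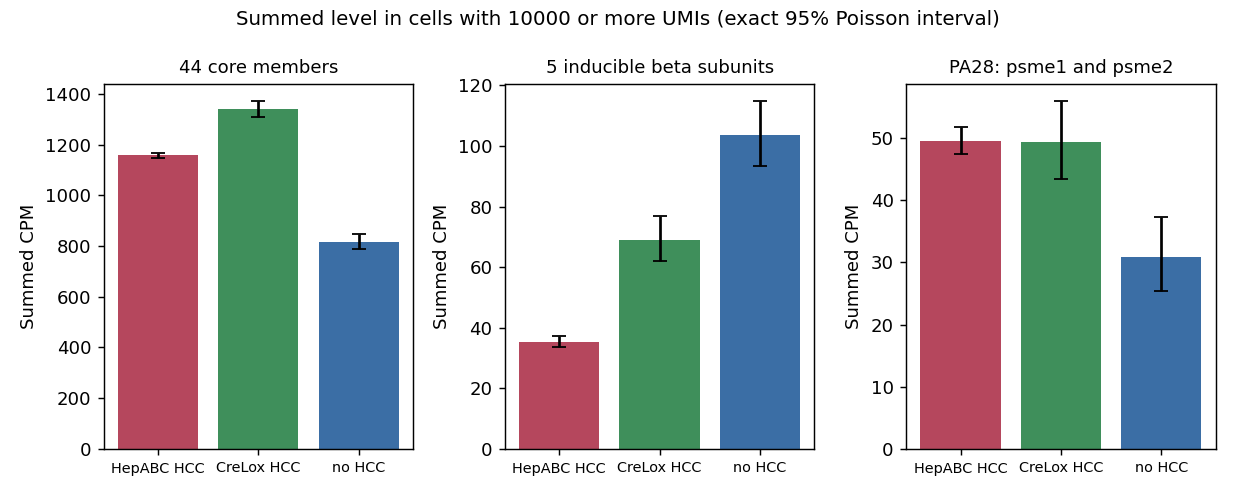
Summed level in CPM of the 44 core members, the 5 inducible beta subunits and the PA28 pair in deep cells of the 3 libraries, with bars for the level and lines for the exact 95% Poisson interval. The core sum is 1158, 1340 and 818 CPM and the inducible sum 35.3, 69.1 and 104 CPM in HepABC HCC, CreLox HCC and no HCC.

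The core difference was near that of the transcriptome as a whole. Over the 9401 genes with at least 20 UMIs in HepABC HCC and no HCC deep cells together, the median log2 ratio was 0.55, and the median of the 44 core members was also 0.55, with 22 of the 44 above the median of all genes. In CreLox HCC over no HCC the median was 0.52 for all 6394 genes and 0.70 for the 43 core members with enough UMIs, 30 of which were above the median of all genes. Of all 51 members, 21 were at least 1.5-fold higher in HepABC HCC than in no HCC, where 48.8% of all genes were, and 5 at least 1.5-fold lower, where 14.2% of all genes were. In CreLox HCC over no HCC 28 of the 50 members with enough UMIs were higher, beside 46.5% of all genes, and 4 were lower, beside 6.55%. In HepABC HCC over CreLox HCC 2 members were higher, beside 22.0% of all genes, and 12 were lower, beside 26.2%. With TMM scaling the core sum was 1.12-fold higher in HepABC HCC and 1.15-fold higher in CreLox HCC than in no HCC. The median log2 ratio of all genes under TMM was 0.204 for HepABC HCC and 0.016 for CreLox HCC over no HCC. TMM therefore did not centre all genes at 0 for HepABC HCC. Under TMM 7 of the 51 members were at least 1.5-fold higher in HepABC HCC than in no HCC, beside 36.03% of all genes. A further 8 were at least 1.5-fold lower, beside 22.1%. For CreLox HCC over no HCC 6 of 50 members were higher, beside 21.96% of all genes, and 5 were lower, beside 19.03%.

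Within the 20S alpha ring, whose subunits form the gate, 8 of 9 members had a ratio above 1 in each HCC library over no HCC, beside 70.2% of all genes for HepABC HCC and 77.8% for CreLox HCC. The member with the most UMIs, psma1, had 84.0 CPM in HepABC HCC and 97.7 CPM in CreLox HCC, against 53.8 CPM in no HCC. The highest ratio was that of psma8 in HepABC HCC, with 68.6 CPM against 40.2 CPM in no HCC (1.71-fold, 1.44 to 2.03), and that of psma3 in CreLox HCC, with 54.2 CPM against 24.1 CPM in no HCC (2.25-fold, 1.76 to 2.91). At the low end psma6b did not differ beyond counting error, with 35.5 and 35.3 CPM in HepABC HCC and CreLox HCC, against 36.0 CPM in no HCC. In HepABC HCC over CreLox HCC the alpha genes ran between 0.610 for psma3 and 1.41 for psma6l. The counts of psma6a, psma6b and psma6l are uncertain, since reads of similar copies may not be told apart.

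Among the 7 constitutive beta subunits, psmb7, which carries the trypsin-like site, differed the most. It had 43.9 CPM in HepABC HCC and 61.9 CPM in CreLox HCC, against 21.8 CPM in no HCC, 2.01-fold (1.60 to 2.56) and 2.84-fold (2.21 to 3.70) higher. The subunit psmb6, with the caspase-like site and the most UMIs, had 85.4 and 85.1 CPM in HepABC HCC and CreLox HCC, against 53.0 CPM in no HCC. The subunit psmb5, with the chymotrypsin-like site, separated the HCC libraries, with 10.9 and 21.9 CPM in HepABC HCC and CreLox HCC, against 11.3 CPM in no HCC. Its ratio was 0.496 in HepABC HCC over CreLox HCC (0.402 to 0.618) and 0.961 in HepABC HCC over no HCC, an interval (0.695 to 1.36) that includes 1. In HepABC HCC over CreLox HCC psmb4 (0.564, 0.492 to 0.647) and psmb7 (0.708, 0.627 to 0.802) were also lower. The other 4 beta genes had intervals that include 1 there. The lowest beta ratios over no HCC were those of psmb4 in HepABC HCC, 0.924 (0.761 to 1.13), and psmb2 in CreLox HCC, 1.31 (1.01 to 1.71).

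The 7 ATPases of the 19S base were all higher in both HCC libraries than in no HCC, with intervals above 1 for 7 of 7 in HepABC HCC, beside 35.1% of all genes, and for 6 of 7 in CreLox HCC, beside 40.4%. As a group they summed to 152 CPM in HepABC HCC and 172 CPM in CreLox HCC, against 89.8 CPM in no HCC, 1.69-fold (1.51 to 1.90) and 1.92-fold (1.68 to 2.19) higher. The ATPase psmc2 led in both, with 26.5 and 30.9 CPM in HepABC HCC and CreLox HCC, against 11.04 CPM in no HCC, 2.40-fold (1.74 to 3.39) and 2.80-fold (1.96 to 4.08). The lowest was psmc4 in HepABC HCC, 1.37-fold (1.06 to 1.79), and psmc3 in CreLox HCC, 1.15-fold (0.803 to 1.67). In HepABC HCC over CreLox HCC psmc5 was lowest at 0.681 (0.575 to 0.813) and psmc3 highest at 1.34 (1.07 to 1.71).

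The 15 psmd genes varied more. Their sum was 213 CPM in HepABC HCC and 247 CPM in CreLox HCC, against 167 CPM in no HCC, 1.27-fold (1.17 to 1.39) and 1.48-fold (1.34 to 1.63) higher. The base chaperone psmd10, known in human liver as the oncoprotein gankyrin, had 12.4 CPM in HepABC HCC and 9.14 CPM in CreLox HCC, against 3.40 CPM (12 UMIs) in no HCC, 3.64-fold (2.06 to 7.08) and 2.69-fold (1.40 to 5.59). The chaperone psmd5 had 126 UMIs in HepABC HCC and 18 in CreLox HCC, against 1 UMI in no HCC, so that its ratios of 10.2 and 12.9 have intervals of 1.80 to 407 and 2.04 to 538 and set little beyond a direction. The lid subunit psmd11b stood at the low end, with 7.60 and 15.4 CPM in HepABC HCC and CreLox HCC, against 11.3 CPM in no HCC, which for HepABC HCC is a ratio of 0.671 over no HCC (0.482 to 0.957). In CreLox HCC over no HCC the lowest was psmd8, 1.23 (0.903 to 1.69), and psmd7 had the most UMIs, with 29.5, 25.8 and 20.1 CPM in HepABC HCC, CreLox HCC and no HCC. Reads of copies such as psmc1a and psmc1b, psmd4a and psmd4b, and psmd11a and psmd11b may likewise not be told apart.

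Of the other activators, psme3, which makes the nuclear PA28 gamma, had 11.5 CPM in HepABC HCC and 17.1 CPM in CreLox HCC, against 9.63 CPM in no HCC. The PA200 gene psme4b was lower in CreLox HCC, with 3.45 CPM against 6.80 CPM in no HCC (0.508, 0.256 to 0.986), while the ratio in HepABC HCC was 0.635 (0.414 to 1.02). The inhibitor psmf1 was the core member with the highest ratio of HepABC HCC over CreLox HCC, at 15.7 against 9.55 CPM (1.65, 1.22 to 2.26). Of the chaperones that assemble the 20S ring, psmg1 was 2.33-fold higher in HepABC HCC than in no HCC (1.59 to 3.55), and psmg2 had a ratio of 0.888 (0.700 to 1.14). The chaperone psmg3 had the most UMIs of the 3, and in CreLox HCC it was 1.63-fold higher than in no HCC (1.202 to 2.24).

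**Figure D2:**
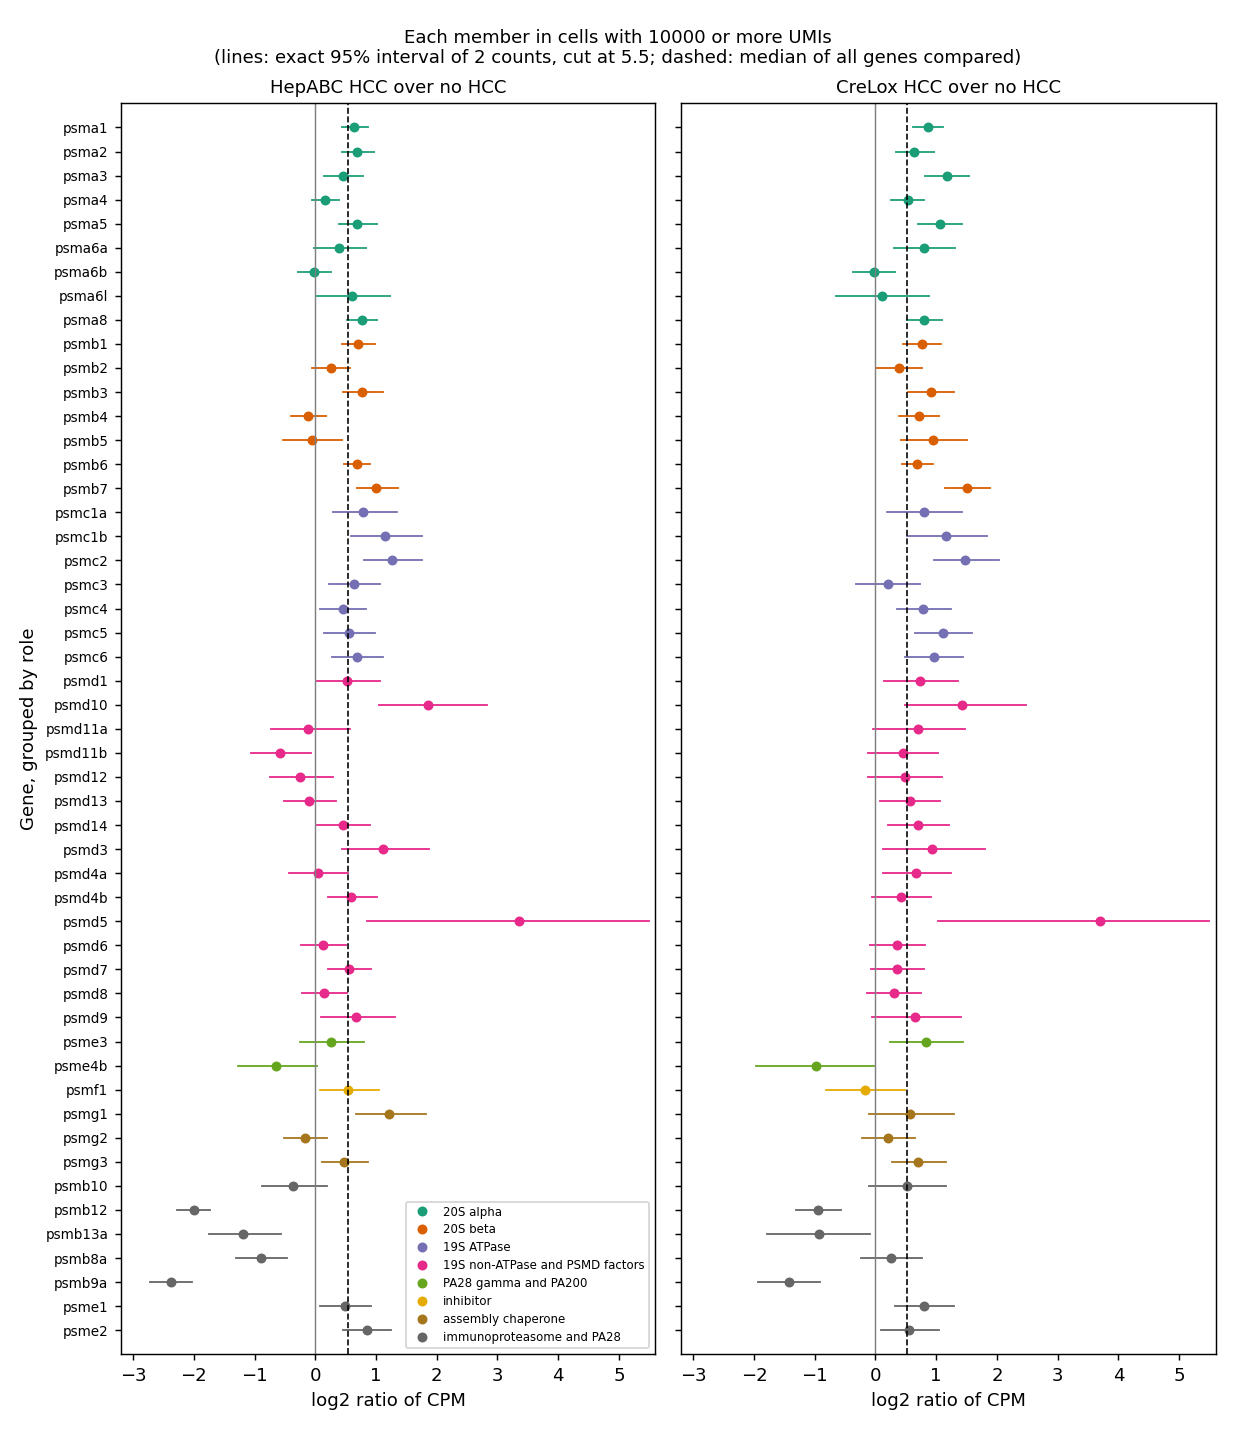
The log2 ratio of CPM in deep cells for each of the 51 members, HepABC HCC over no HCC on the left and CreLox HCC over no HCC on the right, with lines for the exact 95% interval (cut at 5.5 for psmd5) and a dashed line at the median of all genes compared. Core members lie around the dashed line, at 0.55 and 0.52, while psmb9a, psmb12 and psmb13a lie below 0 in both panels.

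The sum of the inducible beta subunits did not move with the core, and neither did psmb9a, psmb12 and psmb13a. The gene psmb9a, the inducible partner of psmb6, had 5.33 CPM in HepABC HCC and 10.4 CPM in CreLox HCC, against 27.7 CPM in no HCC, and its ratios over no HCC were 0.192 (0.151 to 0.246) and 0.373 (0.261 to 0.529). Its relative psmb12, also of the beta1 type by its RefSeq synonym, had 10.6 and 22.1 CPM in HepABC HCC and CreLox HCC, against 42.5 CPM in no HCC, ratios of 0.250 (0.207 to 0.302) and 0.521 (0.403 to 0.671). The beta2-type gene psmb13a had 3.74 and 4.47 CPM in HepABC HCC and CreLox HCC, against 8.49 CPM in no HCC, ratios of 0.441 (0.297 to 0.674) and 0.526 (0.289 to 0.943). All 3 genes were thus lower in both HCC libraries with an interval below 1, where 13.1% of all genes were in HepABC HCC and 8.41% in CreLox HCC. The other 2 genes were lower in HepABC HCC than in CreLox HCC, but CreLox HCC did not differ from no HCC beyond counting error. For psmb8a, the inducible partner of psmb5, the levels were 8.36 and 18.7 CPM in HepABC HCC and CreLox HCC, against 15.6 CPM in no HCC, with a ratio of 0.537 (0.403 to 0.726) for HepABC HCC over no HCC and an interval of 0.850 to 1.71 for CreLox HCC over no HCC. For psmb10, the inducible partner of psmb7, the levels were 7.26 and 13.4 CPM in HepABC HCC and CreLox HCC, against 9.34 CPM in no HCC, ratios of 0.777 (0.542 to 1.15) and 1.43 (0.931 to 2.25). The log2 ratio of psmb10 in CreLox HCC over no HCC was 0.52, as was the median of all genes. In HepABC HCC over CreLox HCC the 5 genes ran between 0.447 for psmb8a and 0.838 for psmb13a. In the RefSeq annotation of the GRCz12tu assembly psmb13a, psmb8a, psmb12 and psmb9a are neighbours with overlapping spans, and zebrafish are known to carry diverged haplotypes of this region, so counts of these genes against 1 reference are uncertain and a difference in haplotype between the 3 fish cannot be told apart from a difference between the groups. The gene psmb10 is not in that block.

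Both PA28 genes were higher in the HCC libraries. In HepABC HCC psme1 had 20.6 CPM and psme2 had 29.0 CPM, in CreLox HCC 25.6 and 23.8 CPM, and in no HCC 14.7 and 16.1 CPM. Over no HCC psme1 was 1.40-fold (1.06 to 1.89) and 1.74-fold (1.25 to 2.45) higher in HepABC HCC and CreLox HCC, and psme2 was 1.80-fold (1.38 to 2.38) and 1.47-fold (1.06 to 2.06) higher. The median log2 ratio of the pair over no HCC was 0.66 for HepABC HCC and 0.68 for CreLox HCC, beside 0.55 and 0.52 for all genes. In HepABC HCC psme1, at 0.48, was below the median of all genes and psme2, at 0.84, above it. In CPM the sums of the PA28 pair and of the inducible beta genes went opposite ways. The sum over all 7, 84.9 and 118 CPM in HepABC HCC and CreLox HCC, against 135 CPM in no HCC, hid this difference.

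Single deep cells were spread in the same order as the sums. The median cell had 1120 core CPM in HepABC HCC and 1238 in CreLox HCC, against 819 in no HCC, and the quartiles were 913 and 1334 CPM in HepABC HCC and 967 and 1620 CPM in CreLox HCC, against 615 and 999 CPM in no HCC. Cells without a UMI of any of the 5 inducible beta genes made up 48.7% of deep cells in HepABC HCC and 23.7% in CreLox HCC, against 19.2% in no HCC, although the median number of UMIs per deep cell was 20802 and 24907 in HepABC HCC and CreLox HCC, against 17048 in no HCC. For psme1 and psme2 together the share without a UMI was 40.8% and 31.2%, against 61.5% in no HCC. Within narrower ranges of depth the core kept its order of libraries, and so did the inducible sum of HepABC HCC against no HCC. In cells with 10000 to 15000 UMIs the core had 1020 CPM in HepABC HCC and 1360 CPM in CreLox HCC, against 798 CPM in no HCC, and the inducible sum had 30.7 CPM in HepABC HCC, against 93.3 CPM in no HCC. In CreLox HCC cells of that depth the inducible sum was 101 CPM (72.2 to 138), with the no HCC level inside its interval. From 15000 to below 20000 UMIs it was 101 CPM in CreLox HCC (74.99 to 134), against 107 CPM in no HCC (91.6 to 124), again with overlapping intervals, and from 20000 UMIs up it was 62.1 CPM (54.6 to 70.2), against 108 CPM (88.5 to 131), where the intervals were apart. Without the 5% of cells with the most UMIs in each library, which left 80 deep cells of CreLox HCC, the inducible sum was 35.2 CPM in HepABC HCC and 85.4 CPM in CreLox HCC, against 102 CPM in no HCC, and the sum with psme1 and psme2 in CreLox HCC turned to 1.09 of that in no HCC, beside 0.880 with all deep cells.

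Markers of leukocytes and endothelium were also counted in deep cells. Macrophage markers summed to 53.4 CPM in HepABC HCC and 141 CPM in CreLox HCC, against 53.5 CPM in no HCC, where 1 of 9 genes was at 0. Lymphocyte markers were at 2.43 and 16.0 CPM in HepABC HCC and CreLox HCC, against 2.27 CPM in no HCC with 6 of 9 genes at 0, and endothelial markers at 4.29 and 13.4 CPM, against 3.40 CPM with 5 of 7 genes at 0. CreLox HCC had the highest sum of each list. The gene cd3eap, on the lymphocyte list by its name, codes for an RNA polymerase I subunit and was left out of these sums. The antigen presentation gene cd74a had 27.7 and 68.4 CPM in HepABC HCC and CreLox HCC, against 35.1 CPM in no HCC. In no HCC deep cells there were 2.95 inducible beta UMIs for each UMI of cd74a, 45.8 for ccl38.6, 73.2 for c1qb and 122 for coro1a. The last 3 values rest on 8, 5 and 3 UMIs of those genes. In HepABC HCC deep cells the values were 1.27, 7.43, 10.9 and 43.9, and in CreLox HCC 1.01, 7.91, 5.15 and 7.91. In c1qb cells of no HCC the values were 0.0144 for cd74a and 1.28 for coro1a. In ccl38.6 cells of no HCC they were 0.478 and 1.15, and in tmem88a cells 1.22 and 31.3, the last on 3 UMIs of coro1a. When deep cells with any UMI of a leukocyte or endothelial marker were left out, an alternative added after seeing the data, the inducible sum was 34.2 and 54.4 CPM in HepABC HCC and CreLox HCC, against 106 CPM in no HCC. The part of leukocyte transcripts in the inducible sum of deep cells was not tested.

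A share between genes of the same cells does not depend on the scaling of libraries. Of all UMIs of catalytic beta genes, those of psmb8a, psmb9a, psmb10, psmb12 and psmb13a made up 20.1% in deep cells of HepABC HCC (19.2 to 21.0) and 29.0% in CreLox HCC (26.4 to 31.7), against 54.6% in no HCC (50.8 to 58.4), with psmb5, psmb6 and psmb7 as the rest. The 3 intervals were apart. By site, psmb9a and psmb12 made up 15.7% of the beta1 UMIs in HepABC HCC and 27.6% in CreLox HCC, against 57.0% in no HCC, the widest gap. For beta2, psmb10 and psmb13a had 20.1% and 22.4% in HepABC HCC and CreLox HCC, against 45.0% in no HCC. For beta5 psmb8a made up 43.4% (40.0 to 46.9) of UMIs for HepABC HCC and 46.0% (38.9 to 53.2) for CreLox HCC, against 57.9% (47.3 to 68.0) in no HCC, where the interval of CreLox HCC overlaps that of no HCC. A 3′ count measures transcripts with a poly(A) tail and not the subunits held in assembled proteasomes.

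Below the deep range the same share was again higher in no HCC. In cells with 5000 to below 10000 UMIs it was 23.8% and 37.4% for HepABC HCC and CreLox HCC, against 67.6% in no HCC, and in shallow cells without a marker 34.0% and 38.8%, against 74.1%. In cells marked by c1qb it was 74.3% (68.6 to 79.5) and 70.0% (62.0 to 77.2) in HepABC HCC and CreLox HCC, against 84.8% (78.3 to 89.9) in no HCC, and in cells marked by ccl38.6 75.4% (63.1 to 85.2) and 78.9% (73.8 to 83.4), against 89.0% (85.3 to 92.0). In cells marked by tmem88a it was 66.7% (38.4 to 88.2) in HepABC HCC, on 15 UMIs, and 46.6% (33.3 to 60.1) in CreLox HCC, against 68.6% (60.1 to 76.3) in no HCC. The share was therefore highest in the c1qb and ccl38.6 cells of every library, and within each cell group no HCC had the highest value. The interval of HepABC HCC overlapped that of no HCC in c1qb and tmem88a cells, and that of CreLox HCC in tmem88a cells ended just below the start of the no HCC interval. The ccl38.6 cells also differed between libraries. In them genes of the lymphocyte list, with cd3eap kept in, summed to 2060 and 6906 CPM in HepABC HCC and CreLox HCC, against 6138 CPM in no HCC. Macrophage markers in ccl38.6 cells summed to 3168 and 3572 CPM, against 3704 CPM, and hepatocyte markers to 81460 and 52442 CPM, against 89660 CPM. The part of this in the share was not tested. Shallow cells without a marker are a mixture that differed between libraries. Erythrocyte markers in them summed to 5.05 and 624 CPM in HepABC HCC and CreLox HCC, against 12061.5 CPM in no HCC. Cholangiocyte markers summed to 1181 and 1161 CPM, against 3087 CPM in no HCC. The part of this mixture in the share was not tested.

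**Figure D3:**
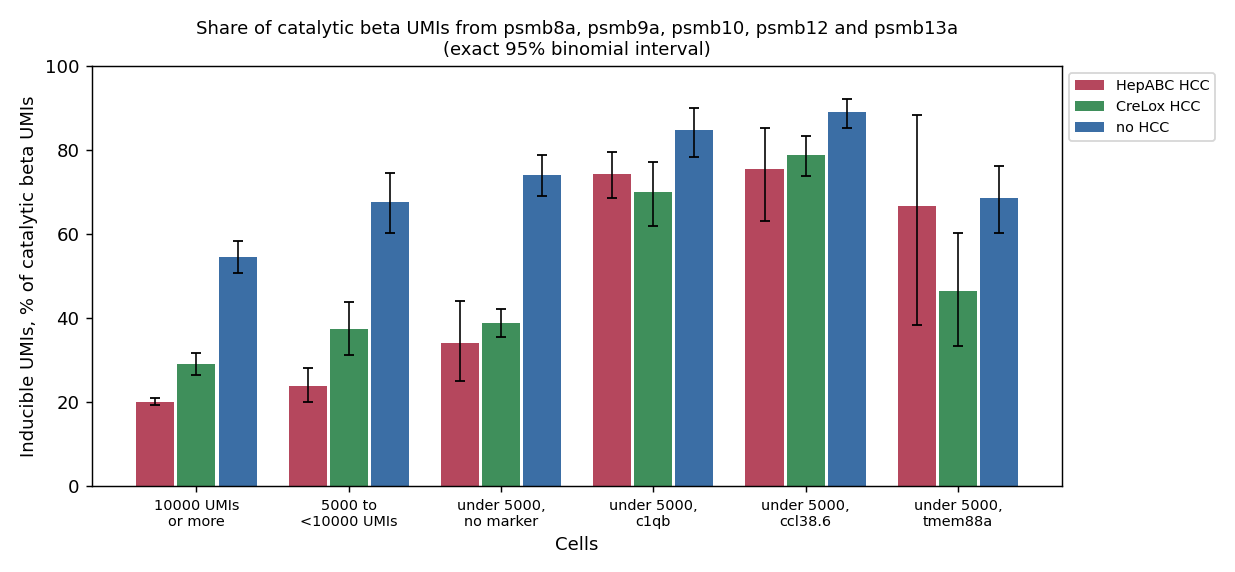
Share of catalytic beta UMIs, in percent, that came from the 5 inducible genes, by cell group and library, with exact 95% binomial intervals. In deep cells the bars stand at 20.1%, 29.0% and 54.6% for HepABC HCC, CreLox HCC and no HCC, and in each of the 6 cell groups the no HCC bar is the highest.

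The inducible sum in CPM behaved the same way. Over the 6 cell groups and both HCC libraries, its ratio to no HCC was below 1 with an interval below 1 in 12 of 12 comparisons, from 0.151 for HepABC HCC in shallow cells without a marker to 0.689 for HepABC HCC in c1qb cells. Of all genes, those with an interval below 1 in HepABC HCC made up 13.1% in deep cells, 25.7% in cells with 5000 to below 10000 UMIs, 30.8% in shallow cells without a marker and 13.8%, 14.0% and 15.5% in c1qb, ccl38.6 and tmem88a cells. For CreLox HCC these shares were 8.41%, 18.4%, 24.7%, 12.4%, 11.1% and 14.7%. These are shares of single genes, whereas the sum pools the UMIs of 5 genes, so they are not a like measure for the sum. By gene, psmb12 had an interval below 1 in 12 of 12, psmb8a in 10, psmb9a in 8, psmb13a in 7 and psmb10 in 3, and none of the 5 genes had an interval above 1 in any. These comparisons share the no HCC library and its cells are of 1 fish, so they are not independent of each other. For psme1 and psme2 together 3 intervals were above 1, 4 below and 5 included 1.

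The core sum, in contrast, changed its order with the depth and the kind of cell. In cells with 5000 to below 10000 UMIs it was 947 CPM in HepABC HCC and 1576 CPM in CreLox HCC, against 1388 CPM in no HCC, and in shallow cells without a marker 1191 and 2000 CPM, against 1884 CPM. HepABC HCC over no HCC was thus 0.682 (0.627 to 0.743) and 0.632 (0.575 to 0.694) in these cells, the opposite of the 1.42 in deep cells. All genes shifted less than the core there, with median log2 ratios of -0.22 and -0.37 for all genes and of -0.75 and -0.72 for the core members with enough UMIs. In cells with 5000 to below 10000 UMIs mitochondrial genes took 12.4% and 4.61% of UMIs in HepABC HCC and CreLox HCC, against 10.7% in no HCC, and the part of this in the core level was not tested. In c1qb cells the core was 2666 and 2516 CPM in HepABC HCC and CreLox HCC, against 1971 CPM in no HCC, and in tmem88a cells 1973 and 2712 CPM, against 3357 CPM.

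**Figure D4:**
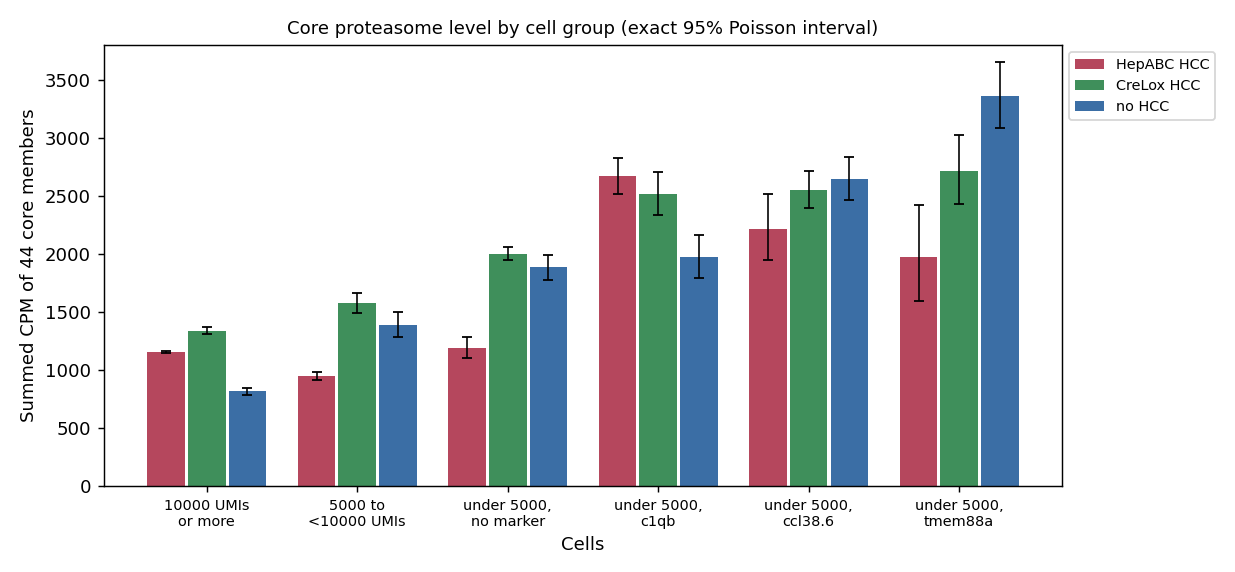
Summed CPM of the 44 core members by cell group and library, with exact 95% Poisson intervals. HepABC HCC is above no HCC in deep cells (1158 against 818 CPM) and in c1qb cells (2666 against 1971 CPM) and below it in the other 4 groups.

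Marked cells were then set against shallow cells of the same library that had none of the 3 markers. In c1qb cells the 7 immunoproteasome and PA28 genes summed to 883 CPM in HepABC HCC, against 136 CPM in cells without a marker (6.48-fold, 5.09 to 8.34), to 698 against 233 CPM in CreLox HCC (3.00-fold, 2.54 to 3.53) and to 963 against 565 CPM in no HCC (1.70-fold, 1.43 to 2.02). In ccl38.6 cells the sums were 785, 1073 and 1590 CPM in HepABC HCC, CreLox HCC and no HCC, against the same cells without a marker, 5.76-fold (4.20 to 7.91), 4.61-fold (4.05 to 5.24) and 2.81-fold (2.45 to 3.23) higher. In tmem88a cells they were 509, 423 and 842 CPM, 3.74-fold (2.27 to 5.96), 1.82-fold (1.34 to 2.42) and 1.49-fold (1.21 to 1.82) higher. The folds differed between libraries mostly through the cells without a marker, whose level ran between 136 CPM in HepABC HCC and 565 CPM in no HCC. Macrophage markers in those cells summed to 1142 CPM in HepABC HCC and 660 CPM in CreLox HCC, against 5350 CPM in no HCC. Genes of the lymphocyte list, here with cd3eap kept in, summed to 113 and 197 CPM, against 547 CPM in no HCC. These lymphocyte sums are therefore not comparable with those of deep cells. With cells holding any listed leukocyte or endothelial marker removed from the cells without a marker, an alternative added after seeing the data, their sum was 87.5, 174 and 250.2 CPM and the folds became 10.1, 4.00 and 3.85 for c1qb cells, 8.97, 6.15 and 6.35 for ccl38.6 cells and 5.82, 2.43 and 3.37 for tmem88a cells. With cells under 2000 UMIs alone, the folds of HepABC HCC were 3.14 for c1qb, 3.26 for ccl38.6 and 2.13 for tmem88a cells.

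The core differed less between marked and unmarked cells of a library. The core ratio of c1qb cells was 2.24 (2.04 to 2.46) for HepABC HCC, 1.26 (1.16 to 1.36) for CreLox HCC and 1.05 (0.935 to 1.17) for no HCC. In ccl38.6 cells it was 1.86, 1.27 and 1.40, and in tmem88a cells 1.66, 1.36 and 1.78, and in tmem88a cells of no HCC the core ratio was above the 1.49 of the immunoproteasome and PA28 genes. This order turned when cells holding any listed leukocyte or endothelial marker were removed from the cells without a marker, with 2.37 for the core (2.08 to 2.71) and 3.37 for the immunoproteasome and PA28 genes (2.503 to 4.56). Members at least 1.5-fold higher in c1qb cells were 37 of 41 with enough UMIs for HepABC HCC (48.4% of all genes), 17 of 49 for CreLox HCC (34.3%) and 7 of 40 for no HCC (26.1%). In ccl38.6 cells they were 16 of 23 (30.7%), 22 of 49 (40.1%) and 23 of 44 (35.0%), and in tmem88a cells 11 of 18 (34.0%), 21 of 49 (42.4%) and 27 of 44 (44.6%). Except in HepABC HCC, and in tmem88a and ccl38.6 cells of no HCC, the members' share was therefore near or under that of all genes.

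All 7 immunoproteasome and PA28 genes had a ratio above 1 in c1qb cells and in ccl38.6 cells of every library, beside 60.6%, 50.5% and 45.3% of all genes in c1qb cells and 49.2%, 56.1% and 55.0% in ccl38.6 cells for HepABC HCC, CreLox HCC and no HCC. In ccl38.6 cells the interval was above 1 for each of the 7 in each library, beside 21.9%, 31.6% and 28.3% of all genes in the same order, although 3 of the 21 pairs of gene and library had fewer than 20 UMIs. The gene psmb9a had the highest ratio of the 7 in HepABC HCC and no HCC, with 83.1 CPM in ccl38.6 cells of HepABC HCC, against 6.73 CPM in cells without a marker (12.4-fold, 3.45 to 54.9), 98.4 against 19.4 CPM in CreLox HCC (5.08-fold, 3.23 to 7.96) and 323 against 84.6 CPM in no HCC (3.82-fold, 2.71 to 5.44). Its HepABC HCC ratio rests on 9 against 4 UMIs, under the minimum of 20. For psmb8a the levels were 111, 212 and 303 CPM in ccl38.6 cells of HepABC HCC, CreLox HCC and no HCC, against 15.1, 40.4 and 105 CPM. For psmb13a they were 36.9, 83.3 and 129 CPM, against 6.73, 9.26 and 36.0 CPM, with 4 against 4 UMIs in HepABC HCC. The levels in ccl38.6 cells were 139, 119 and 262 CPM for psmb12 and 83.1, 80.8 and 81.7 CPM for psmb10. Over no HCC the psmb12 intervals were below 1, at 0.282 to 0.927 for HepABC HCC and 0.308 to 0.659 for CreLox HCC. Those of psmb10, on 9, 32 and 24 UMIs, were 0.416 to 2.27 and 0.564 to 1.75. These are too wide to call psmb10 level across libraries. The PA28 gene psme2 reached 175, 263 and 279 CPM there, and psme1 157, 217 and 211 CPM.

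The c1qb cells had a like pattern with a larger part for psme2. It had 298, 198 and 177 CPM in c1qb cells of HepABC HCC, CreLox HCC and no HCC, against 45.4, 61.9 and 92.4 CPM in cells without a marker, and psmb8a had 150.2, 128 and 227 CPM, against 15.1, 40.4 and 105 CPM. In c1qb cells the intervals were above 1 in all 3 libraries for psmb8a, psmb13a, psme1 and psme2, beside 41.1%, 23.4% and 20.3% of all genes in HepABC HCC, CreLox HCC and no HCC. They included 1 for psmb12 in CreLox HCC and no HCC, at 1.46 (0.817 to 2.46) and 1.23 (0.791 to 1.87), for psmb10 in the same libraries and for psmb9a in no HCC. Ratios below 1 in all 3 libraries were those of psmb7 and psmd9 in c1qb cells and of psmb7, psmc1b and psmd3 in ccl38.6 cells. For psmb7 in c1qb cells the ratios were 0.722 (0.312 to 1.58), 0.373 (0.158 to 0.750) and 0.242 (0.0277 to 0.973) in HepABC HCC, CreLox HCC and no HCC, on 11, 8 and 2 UMIs. The inhibitor psmf1 was the single core member above 1 by its interval in c1qb cells of every library, 3.50-fold (1.89 to 6.82), 2.22-fold (1.14 to 4.06) and 2.66-fold (1.06 to 6.58). These ratios rest on 40, 14 and 11 UMIs in c1qb cells, against 15, 52 and 12 UMIs in cells without a marker. The share of all genes with such intervals, or with ratios below 1, in all 3 libraries was not counted. These genes are therefore not set apart from genes outside the members.

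**Figure D5:**
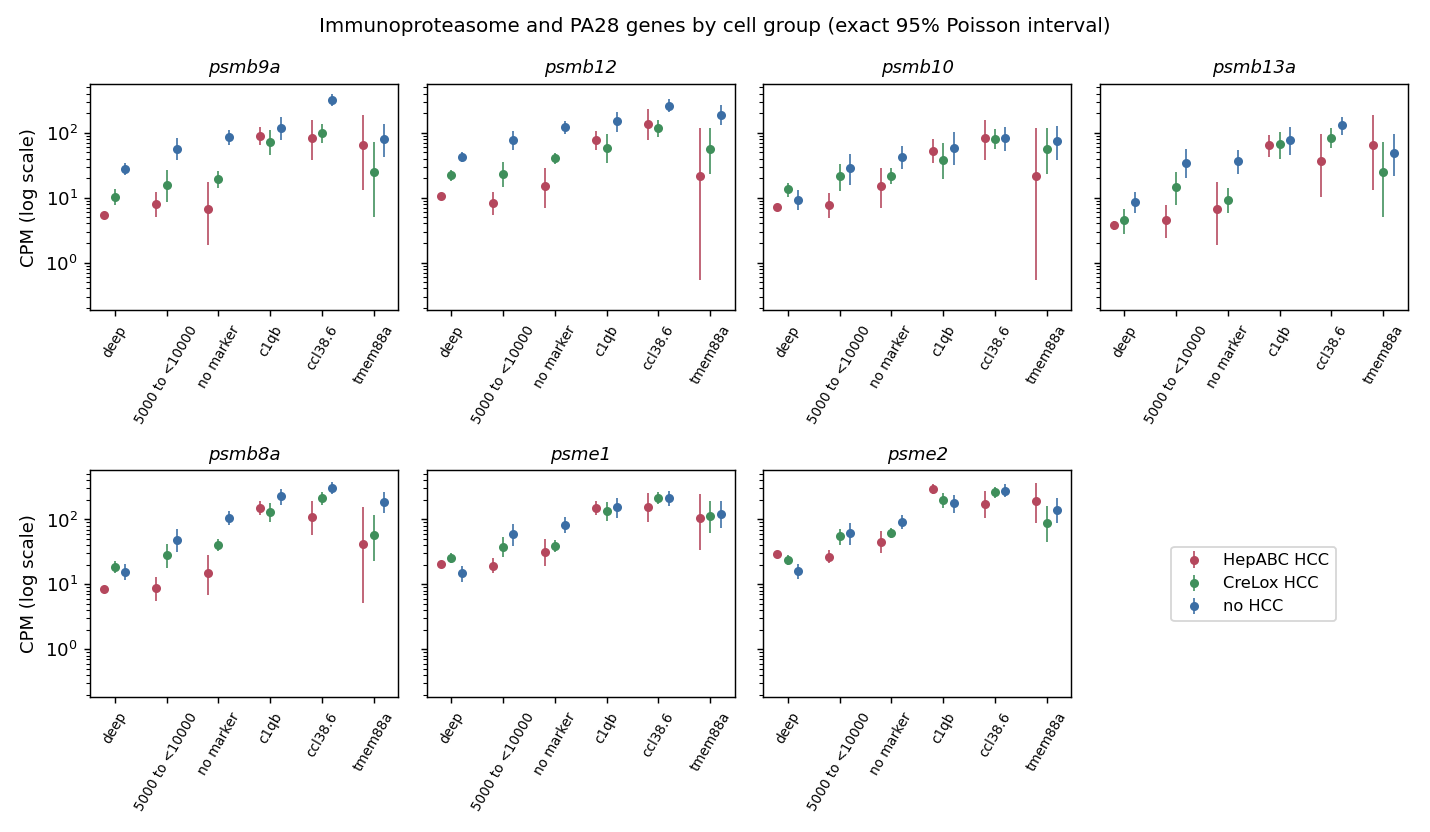
CPM on a log axis of the 7 immunoproteasome and PA28 genes in each cell group (deep cells, 5000 to below 10000 UMIs, and under 5000 UMIs without a marker or with c1qb, ccl38.6 or tmem88a), 1 point per library with its exact 95% Poisson interval. Points of c1qb and ccl38.6 cells lie above those of cells without a marker for each gene and library, and for psmb9a and psmb12 the no HCC points are above those of both HCC libraries in each group, though with overlapping intervals for psmb9a in c1qb and tmem88a cells and for psmb12 of HepABC HCC in c1qb and ccl38.6 cells.

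Genes that act around the proteasome were read from 2 lists. Of 28 genes for ubiquitin, its shuttles and proteasome assembly, 22 had enough UMIs in deep cells of HepABC HCC and no HCC, of which 6 were at least 1.5-fold higher in HepABC HCC, beside 48.8% of all genes, and 3 at least 1.5-fold lower, beside 14.2%. For CreLox HCC over no HCC these counts were 5 and 0 of 20, beside 46.5% and 6.55%. The polyubiquitin gene ubc had 122 and 79.4 CPM in HepABC HCC and CreLox HCC, against 37.1 CPM in no HCC. The 19S subunit sem1, which the naming rule misses, had 51.4 and 103 CPM in HepABC HCC and CreLox HCC, against 93.4 CPM in no HCC. The 20S maturation factor pomp had 67.0, 92.2 and 68.0 CPM, and nfe2l1b, of the family of the factor that drives proteasome genes in mammals, had 3.31, 3.45 and 3.40 CPM. The nfe2l1b levels are given without an interval and do not decide whether it differed between libraries.

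Of 24 genes of interferon response and class I presentation, 15 had enough UMIs in HepABC HCC and no HCC deep cells, with 8 at least 1.5-fold higher and 3 at least 1.5-fold lower in HepABC HCC, beside the same 48.8% and 14.2% of all genes. In CreLox HCC over no HCC it was 2 and 1 of 8, beside 46.5% and 6.55%. The interferon signalling gene stat1a had 25.5 and 18.9 CPM in HepABC HCC and CreLox HCC, against 11.3 CPM in no HCC. Its relation to the inducible beta genes was not tested. The class I light chain b2m had 559 and 350 CPM, against 458 CPM in no HCC. Genes named for class I heavy chains split. The gene mhc1uka had 0.482 and 0.609 CPM in HepABC HCC and CreLox HCC, against 5.10 CPM in no HCC. The gene mhc1zba had 144 and 75.1 CPM, against 61.2 CPM. The mhc1uka level in CreLox HCC rests on few UMIs, and no interval is given for it. Zebrafish class I genes also differ between haplotypes, so that differences of single genes cannot be told apart from those between fish.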

How the data were processed

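The deposited values are raw UMI counts for each gene in each cell, made by the authors with Cell Ranger 2.2.0 per the labels against GRCz11 with Ensembl annotation, with cells separated from empty droplets by EmptyDrops and outlying cells removed. The 3′ chemistry counts transcript ends, and a symbol is all that names a gene in the files, so genes were matched by symbol. RefSeq names of GRCz12tu, another build, matched 50 of 51 members and gave synonyms and neighbours only. Counts were summed per library and cell group, with 1 library per group, and no cell was removed. The lowest cell had 801 UMIs. Poisson, binomial and 2-count ratio intervals were exact (Python 3.11.15, scipy 1.17.1), checked on simulated data, and no test was run. A gene was compared with at least 20 UMIs over both groups, and 1.5-fold was the size named. Marked cells held a UMI of 1 marker and of neither other. Doublets were not called, and an alternative leaves out the 5% of cells with the most UMIs. Scaling alternatives used TMM in edgeR 4.0.16 and size factors of DESeq2 1.42.0. Named were all 7 immunoproteasome and PA28 genes and, per role, the highest and lowest ratio of each deep-cell comparison and the gene with the most UMIs. The members and lists were chosen with earlier results of these data known. The capital-letter row PSMD2 and rows listed in fewer libraries were not members. Alternatives were other limits on depth and counts, other totals, thinning to 1000 UMIs and leaving out marked cells.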

Additional observations from a re-analysis of the deposited data

Results flagged for a closer look

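Rows with a psm name outside the 51 members were read because they hold UMIs that none of the comparisons used, above the 3 counts that a count of 0 allows. The row PSMD2, written in capitals and listed in all 3 libraries, had 43 UMIs in HepABC HCC and 13 in CreLox HCC, against 7 in no HCC. The lower-case row psmd2 was listed in HepABC HCC, with 11 UMIs. The row psme4a, a second PA200 gene beside the member psme4b, was listed in HepABC HCC, with 9 UMIs. The row psmc3ip, which is named after psmc3 and codes for a meiotic recombination factor and not a subunit, had 6 UMIs in HepABC HCC and 5 in CreLox HCC. For the same marker, no member had an interval above 1 in marked cells of 1 library and below 1 in those of another.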

How the results depend on the processing

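No paired analysis was possible because each group had 1 library and no test was made. Ratios of deep cells below are HepABC HCC over no HCC, CreLox HCC over no HCC and HepABC HCC over CreLox HCC, in that order unless named. With TMM the core sum was 1.12, 1.15 and 0.967, the immunoproteasome and PA28 sum 0.498, 0.620 and 0.802, and members past 1.5-fold in either direction 15 and 11 over no HCC, beside 26 and 32 with total UMIs. Of all genes under TMM, 36.03% were at least 1.5-fold higher and 22.1% lower in HepABC HCC over no HCC. For CreLox HCC over no HCC these shares were 21.96% and 19.03%. With DESeq2 size factors the core sum was 1.07, 1.13 and 0.945 and the immunoproteasome and PA28 sum over no HCC 0.477 and 0.609. With totals that leave out mitochondrial genes and the top 20 genes, the values over no HCC were 1.24 and 1.41 for the core and 0.553 and 0.757 for the other sum. With deep cells from 5000 UMIs the core was 1.29, 1.55 and 0.832, and the immunoproteasome and PA28 sum 0.521 in HepABC HCC over no HCC and 0.651 in HepABC HCC over CreLox HCC. From 20000 UMIs the HepABC HCC over CreLox HCC values were 0.910 and 0.806, and as a mean over cells the core value was 0.838. Without the 5% of cells with the most UMIs, the immunoproteasome and PA28 sum turned to 1.09 in CreLox HCC over no HCC, on the CreLox HCC deep cells that were left, and was 0.580 in HepABC HCC over CreLox HCC, with the core at 1.75 in CreLox HCC over no HCC and 0.820 in HepABC HCC over CreLox HCC. Without deep cells holding c1qb, ccl38.6 or tmem88a the core was 1.55 in CreLox HCC over no HCC and 0.904 in HepABC HCC over CreLox HCC. For marked cells, a limit of 2000 UMIs gave 3.14, 3.26 and 2.13 for c1qb, ccl38.6 and tmem88a cells of HepABC HCC and 3.26 for ccl38.6 cells of no HCC.

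The other alternatives were added after seeing the data. Without deep cells holding any listed leukocyte or endothelial marker the CreLox HCC over no HCC values were 1.504 for the core and 0.714 for the immunoproteasome and PA28 sum, and the HepABC HCC over CreLox HCC values 0.910 and 0.844. The inducible beta genes without psme1 and psme2 gave 0.341, 0.666 and 0.511. Adding the row PSMD2 moved no core value beyond its interval. Unmarked cells without any leukocyte or endothelial marker gave c1qb folds of 10.1, 4.00 and 3.85 in HepABC HCC, CreLox HCC and no HCC, ccl38.6 folds of 8.97, 6.15 and 6.35, and for tmem88a 2.43 (CreLox HCC) and 3.37 (no HCC). The core folds over the same cells were 2.47 for c1qb cells of HepABC HCC and 1.39, 1.87 and 2.37 for c1qb, ccl38.6 and tmem88a cells of no HCC. Of 126 values under alternatives, 72 stayed within the interval of the value reported or, for counts, within 1.5 times it. The cause of these moves was not tested. Depth limits tmem88a cells of HepABC HCC most, with 24 cells, and single inducible genes there with 1 to 3 UMIs.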
